A study of Mus musculus with 106 samples.

Results

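Of 95157 merged H3K27ac regions of mouse bone marrow-derived macrophages (BMDM), 980 regions (1.03%) were gained with LPS+IFN-γ in cells of diabetic mice. They were selected on the peak lists of the diabetic BMDM themselves. The 30000 peaks with the smallest p of each of the 23 H3K27ac BMDM lists were merged, and a library was said to hold a region when at least 1 bp of its 30000 peaks lay in it. A gained region was held by at least 5 of the 6 stimulated and by at most 1 of the 5 unstimulated diabetic libraries, so the difference between these 2 groups is the selection itself and is given as a description with no test. The same libraries gave 12801 regions kept in both states (held by at least 5 of 6 stimulated and at least 4 of 5 unstimulated) and 706 lost regions (at least 4 of 5 unstimulated and at most 1 of 6 stimulated). The control BMDM lists helped to set the limits of the merged regions, but which regions were gained was decided on the diabetic lists alone. The progenitors and H3K4me3 had no part in the selection.

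All mice were wild-type C57BL/6J aged 12 to 14 weeks. Diabetic mice had received streptozotocin, a toxin of the insulin-producing beta cell, at 42 to 45 mg/kg daily by intraperitoneal injection for 5 days, and tissue was collected 6 weeks later from those with non-fasted blood glucose above 13.9 mmol/L. Control mice were not diabetic. BMDM of both kinds of mouse were grown from bone marrow for 7 days in medium conditioned by L929 cells with 5 mmol/L glucose, and were then given 100 ng/mL LPS with 10 ng/mL IFN-γ for 16 hours (the M1 groups) or medium alone. The cells called HSC were bone marrow depleted of cells with lineage markers (CD3, CD4, B220, Ter119 and Gr1), which leaves a mixture of stem and progenitor cells and not purified stem cells. Each group had 6 libraries for each mark, except unstimulated diabetic BMDM with the 5 numbered 1, 2, 4, 5 and 6. The labels number the libraries and do not say which came from separate mice, so the spread between them may be in part technical.

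Acetylation of histone H3 at lysine 27 marks active enhancers and promoters, and trimethylation at lysine 4 (H3K4me3) marks promoters. LPS is sensed by the receptor TLR4 and turns on NF-κB and AP-1, while IFN-γ acts through JAK kinases and the interferon regulatory factors (IRF). In macrophages these factors bind next to PU.1 and C/EBP at enhancers that are already open and also open new ones, and genes such as Nos2, the inducible nitric oxide synthase, follow.

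The sequences of 6 gained regions show the material behind the values that follow. They are the region closest to Nos2 and the 5 strongest of the 127 gained regions held by all 6 stimulated and no unstimulated diabetic library, each as the 300 bases around its strongest summit on the plus strand of GRCm38. Capitals mark matches to 7 short motifs searched on both strands, namely an IRF pair (GAAANNGAA), a STAT site (TTCNNNGAA), AP-1 (TGANTCA), PU.1 (GAGGAAGT), C/EBP (TTGCNNAA), RUNX (TGTGGT) and the kB consensus of NF-κB. The Nos2 window lies at chr11:78912892-78913191, Aldh2 at chr5:121584247-121584546, Myl2 at chr5:122082289-122082588, Msi2 at chr11:88693365-88693664, Slamf7 at chr1:171641915-171642214 and Intu at chr3:40526710-40527009.
Nos2: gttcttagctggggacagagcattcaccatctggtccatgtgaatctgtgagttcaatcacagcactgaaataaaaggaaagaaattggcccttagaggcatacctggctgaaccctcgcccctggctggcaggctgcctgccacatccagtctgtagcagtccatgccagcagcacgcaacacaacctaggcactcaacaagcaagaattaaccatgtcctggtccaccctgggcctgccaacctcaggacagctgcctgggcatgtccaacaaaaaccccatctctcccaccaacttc
Aldh2: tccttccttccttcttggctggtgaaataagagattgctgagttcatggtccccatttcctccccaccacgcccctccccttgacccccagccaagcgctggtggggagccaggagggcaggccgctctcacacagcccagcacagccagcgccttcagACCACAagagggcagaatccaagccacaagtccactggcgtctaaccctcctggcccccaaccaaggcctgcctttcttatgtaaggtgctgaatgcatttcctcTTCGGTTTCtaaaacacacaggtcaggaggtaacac
Myl2: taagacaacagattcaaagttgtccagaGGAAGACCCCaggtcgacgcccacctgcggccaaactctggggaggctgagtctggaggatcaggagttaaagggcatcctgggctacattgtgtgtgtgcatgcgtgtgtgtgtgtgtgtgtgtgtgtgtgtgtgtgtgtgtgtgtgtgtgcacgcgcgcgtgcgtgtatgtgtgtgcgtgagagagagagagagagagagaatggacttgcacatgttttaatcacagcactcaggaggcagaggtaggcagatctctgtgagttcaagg
Msi2: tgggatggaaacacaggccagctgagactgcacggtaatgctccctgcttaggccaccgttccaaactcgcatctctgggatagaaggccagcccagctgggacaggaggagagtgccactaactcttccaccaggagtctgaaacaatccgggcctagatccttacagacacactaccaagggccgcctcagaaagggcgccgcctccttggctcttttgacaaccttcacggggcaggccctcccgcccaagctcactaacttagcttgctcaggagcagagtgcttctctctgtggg
Slamf7: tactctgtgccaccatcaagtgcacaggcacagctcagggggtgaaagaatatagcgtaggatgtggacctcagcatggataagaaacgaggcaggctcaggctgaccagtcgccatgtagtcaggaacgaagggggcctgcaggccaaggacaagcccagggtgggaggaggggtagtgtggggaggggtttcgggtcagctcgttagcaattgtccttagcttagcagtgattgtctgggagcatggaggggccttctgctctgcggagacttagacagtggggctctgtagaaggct
Intu: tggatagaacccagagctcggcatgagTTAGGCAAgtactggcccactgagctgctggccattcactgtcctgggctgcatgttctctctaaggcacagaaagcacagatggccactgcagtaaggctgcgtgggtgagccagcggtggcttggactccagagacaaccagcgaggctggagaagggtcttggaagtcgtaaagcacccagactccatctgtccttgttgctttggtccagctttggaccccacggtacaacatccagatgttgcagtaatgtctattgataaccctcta

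The Aldh2 window held a match to the IRF pair and one to RUNX on the minus strand, the Myl2 window a kB match and the Intu window a C/EBP match. No match to these letters was found in the Nos2, Msi2 and Slamf7 windows, which says nothing about binding there. The promoter of Cxcl10, a chemokine gene induced by interferon, is shown because 111 of its 250 bases lay in a gained region. It was chosen after the values were seen. The bases before the start site, read on the gene's strand (minus) from the RefSeq table of GRCm38.p6 at chr5:92348890-92349139, are the following.
Cxcl10 promoter: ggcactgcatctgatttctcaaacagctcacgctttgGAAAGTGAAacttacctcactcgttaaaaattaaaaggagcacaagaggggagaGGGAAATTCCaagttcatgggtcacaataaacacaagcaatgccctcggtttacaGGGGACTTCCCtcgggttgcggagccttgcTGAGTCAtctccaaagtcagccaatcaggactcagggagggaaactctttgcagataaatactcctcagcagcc

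Capitals mark an IRF pair from 213 to 205 bases before the start, kB matches from 159 to 150, from 104 to 95 and, overlapping the last, from 103 to 94, and an AP-1 match from 74 to 68 bases before it.

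Before the gained regions are described, the libraries need a word. The lists of BMDM H3K27ac held from 52470 to 176559 peaks, and their read depth is not known from the files. The number of peaks kept per list was therefore fixed at 30000, and a rank below means the place of a peak in its own list, with rank 1 the strongest. The peak caller's fold enrichment over local background is given with it. Of 12 macrophage genes fixed as markers, 9 to 11 had a promoter peak among the 30000 in each BMDM H3K27ac library and 5 to 9 in each HSC library. Of 12 stem and progenitor genes, 3 to 10 did in BMDM and 8 to 12 in HSC, so the cell types were told apart only in part. Among 8 erythroid genes 6 to 8 had a promoter peak in HSC libraries against 2 to 5 in BMDM, and among 8 neutrophil genes 1 to 5 against 0 to 3. Among 8 lymphoid genes 0 to 5 had one in HSC libraries and 0 to 4 in BMDM. In the control H3K27ac BMDM, the library labelled stimulated 5 held fewer gained regions than all but one unstimulated library, and those labelled unstimulated 5 and 6 held many gained regions. The main control counts, the gene lists, Nos2 and Cxcl10 are given with and without these 3, with the labels kept. They were left out for their values at these same regions, so the counts without them are a description with no test.

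In the diabetic BMDM that defined them, the stimulated libraries 1 to 6 held 927, 895, 922, 840, 828 and 835 of the 980 gained regions. The unstimulated libraries 1, 2, 4, 5 and 6 held 124, 147, 86, 77 and 118. Of the gained regions, 127 were held by 6 stimulated and no unstimulated libraries, 220 by 6 and 1, 301 by 5 and 0, and 332 by 5 and 1. Gained here means a rise in rank and not the appearance of a mark from nothing. Taking peaks of any rank, the 5 unstimulated libraries had a peak in 71.9%, 91.2%, 34.8%, 53.9% and 80.1% of the gained regions.

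The choice of the list decided the members. Keeping 20000 peaks per list gave 610 gained regions, of which 273 overlapped the 980, and keeping 50000 gave 1505, of which 357 did. Ranking peaks by fold enrichment gave 154, of which 2 overlapped the 980. Just outside the rule, 737 regions met the rule for the stimulated libraries but had 2 unstimulated holders, the strongest at chr14:33287109-33288129 near Arhgap22, and 1170 had only 4 stimulated holders. Just inside it were the weakest regions held by 5 and 1 libraries, at chr10:44364145-44365211 near Prdm1 with a median rank of 28999 in the stimulated libraries and at the start site of Psd3 (chr8:68120609-68121957) with a median rank of 26967.

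The Nos2 locus had 5 gained regions, the most of any gene together with Asprv1, a gene for a skin protease. The closest, chr11:78911766-78913402, lay 7385 bp upstream of the Nos2 start site between genes. Its strongest peak in the diabetic stimulated libraries 1 to 6 ranked 9732, 15900, 25570, 16981, 15593 and 16792, with fold enrichments of 6.10, 5.44, 3.62, 5.30, 5.03 and 4.82. Of the unstimulated libraries, library 2 alone had a peak there, at rank 121319 and a fold enrichment of 3.21. All 6 stimulated libraries held this region and no unstimulated diabetic library did. That the stimulated ranks lay above the unstimulated ones therefore describes the selection. Another gained region lay in an intron of Nos2 (chr11:78943400-78946196), and those at chr11:78885398-78887091, chr11:78883254-78884027 and chr11:78873607-78874759 lay 33696, 36760 and 46028 bp upstream. The regions over or next to the annotated start site were not gained by the rule. That at chr11:78923261-78926052 and that at chr11:78916651-78918905 were each held by 6 stimulated and 4 unstimulated diabetic libraries. Another over an annotated start site, chr11:78920261-78921235, was held by 2 stimulated and 0 unstimulated libraries, and the next one downstream, chr11:78921590-78922793, by 4 and 0.

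The 10 strongest gained regions held by all 6 stimulated and no unstimulated diabetic library were, by nearest gene, those of Aldh2, Myl2, Msi2, Slamf7, Intu, Psen2, Arhgef3, Zcchc4, Mlxip and Focad. The nearest gene names a place and was not shown to be the target. Myl2, for example, encodes a light chain of heart muscle myosin. At Aldh2, which encodes the mitochondrial aldehyde dehydrogenase, the region of 3929 bp (chr5:121583644-121587572) lay 3978 bp upstream of the nearest start site in an intron. Its ranks in the diabetic stimulated libraries were 3221, 4892, 3417, 2468, 10406 and 7605, against 61498, 38028, 44964 and 56696 in the unstimulated libraries 1, 2, 4 and 6 and no peak in library 5. In an intron of Slamf7, a receptor of the SLAM family on leukocytes, the region chr1:171641232-171642726 ranked from 124 to 17531 in the stimulated libraries (median 7519) and at 35452, 34411, 41707, 30698 and 98525 in the unstimulated ones. Every unstimulated library had a peak in this Slamf7 region, with fold enrichments of 2.67 to 4.65 against 4.25 to 13.8.

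Chemokine genes were next to 4 gained regions, 3 at Ccl5 and 1 at Cxcl10. Ccl5 recruits T cells and monocytes. Its start site lay in the gained region chr11:83530141-83530927, with ranks of 7962, 8710, 12601, 11960, 38202 and 21847 in the diabetic stimulated libraries. In the unstimulated libraries 1, 2, 5 and 6 the ranks were 30350, 37643, 51778 and 67595, and library 4 had no peak. Stimulated library 5 thus fell between unstimulated libraries. The Cxcl10 region chr5:92345410-92349000 covered the start site, and its peaks ranked 6410, 22503, 14078, 12315, 15842 and 25388 in the stimulated libraries. In the unstimulated libraries 1, 2, 4 and 6 they ranked 35045, 58864, 36195 and 69414, and library 5 had none.

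Among the guanylate-binding proteins, GTPases that attack intracellular pathogens, Gbp8 and Gbp9 had gained regions over their start sites. Reads of this gene family, whose members are alike in sequence, may be placed with less certainty. The Gbp9 region (chr5:105109471-105110289) ranked 8659, 14939, 7774, 22463, 16883 and 26686 in the diabetic stimulated libraries, and among the unstimulated ones library 2 alone had a peak, at rank 61846. Acod1, which makes the antimicrobial metabolite itaconate, had 2 gained regions. In the one 31290 bp upstream (chr14:103014266-103015687) ranks ran from 6848 to 11213 in the stimulated libraries, and libraries 2, 5 and 6 of the unstimulated group had peaks at 52110, 67880 and 25465. Feedback regulators were near 15 gained regions, 4 of them at Socs1, an inhibitor of JAK kinases, and 3 at Ptpn1, a tyrosine phosphatase that acts on JAK2. The Socs1 region chr16:10739680-10741197, 44339 bp downstream, ranked from 9048 to 16735 in the stimulated libraries and 63930, 37969, 36425 and 72410 in unstimulated libraries 1, 2, 4 and 6.

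**Figure D1:**
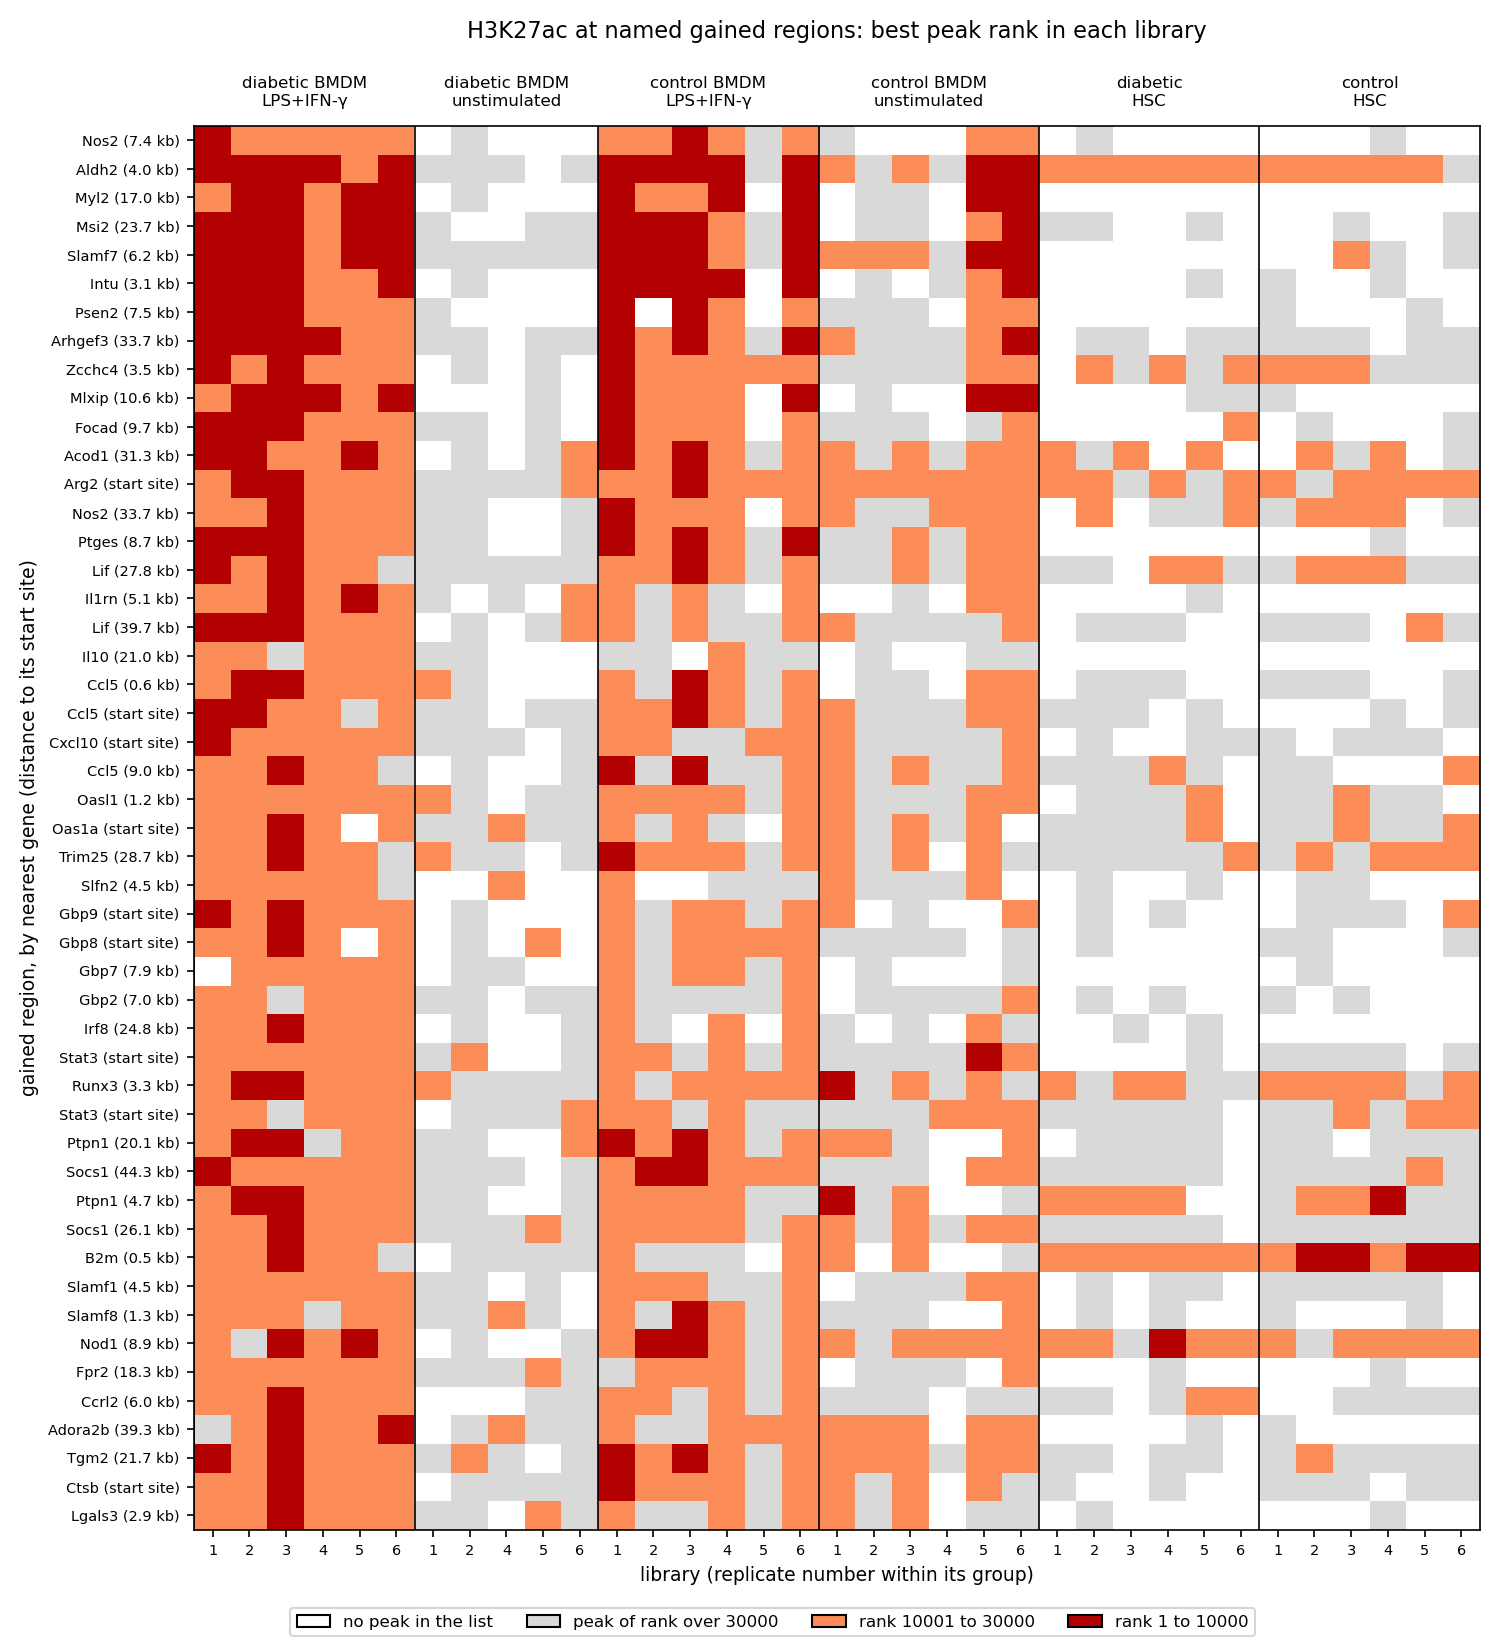
Each row is a gained region named by its nearest gene with the distance to the start site, each column an H3K27ac library grouped by cell state and disease, and the colour gives the rank of the strongest peak in the region. The columns of diabetic stimulated BMDM are dark by selection; control stimulated library 5 is pale at most regions, and control unstimulated libraries 5 and 6 are coloured at many, including the Nos2 region 7.4 kb from its start site.

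By nearest protein-coding gene, the 980 gained regions fell to 825 genes, of which 704 had 1 region, 97 had 2, 16 had 3, 6 had 4 and 2 had 5. Of the 15 gene lists used, effector enzymes of activated macrophages had 12 gained regions at 6 of 20 genes (Nos2, Acod1, Ptges, Arg2, Pfkfb3 and Gch1), which is 1.22% of the gained regions against 0.197% of all regions. Interferon-stimulated genes had 9 (0.918% against 0.205%), interferon-inducible GTPases 4 (0.408% against 0.0652%) and chemokines 4 (0.408% against 0.0683%). Feedback regulators had 15 (1.53% against 0.601%), antigen presentation genes 6 (0.612% against 0.245%), receptors and their signalling proteins 11 (1.12% against 0.416%) and cytokines 4 (0.408% against 0.192%). Transcription factors had 10, or 1.02% against 0.844% of all regions, among them Irf8, Irf2, Batf, Fos and 3 regions at Stat3. Alternative activation genes had 1 (Tgm2, 0.102% against 0.131%) and macrophage markers 2 (Ctsb and Lgals3, 0.204% against 0.115%). Stem cell, neutrophil, erythroid and lymphoid markers had 0, where their shares of all regions were 0.0946%, 0.0179%, 0.0126% and 0.0273%. With shares this small, 0 of 980 says little. The gained regions were thus spread over many genes. Of the 980, 78 lay next to a gene of any of the 15 lists. The share of all regions for the 15 lists together is not given here, so the 78 is to be read through the single lists. In most of these lists the share was larger in gained than in all regions. These shares describe the regions and were not tested.

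Gained regions lay far from start sites more often than kept ones. Their median distance to the nearest start site was 9693 bp, against 0 bp for kept, 5810 bp for lost and 8410 bp for all regions. Of the gained regions 176 (17.96%) were within 1 kb of a start site, against 77.7% of kept, 31.6% of lost and 24.1% of all regions. The strongest summit lay in an intron in 42.2% of gained regions, between genes in 37.4%, within 1 kb of a start site in 13.8% and in a coding exon in 4.59%. Their median width was 1457 bp, with quartiles of 977 and 2333 bp, against 699 bp for all regions, and 370 (37.8%) had another gained region within 100 kb.

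**Figure D2:**
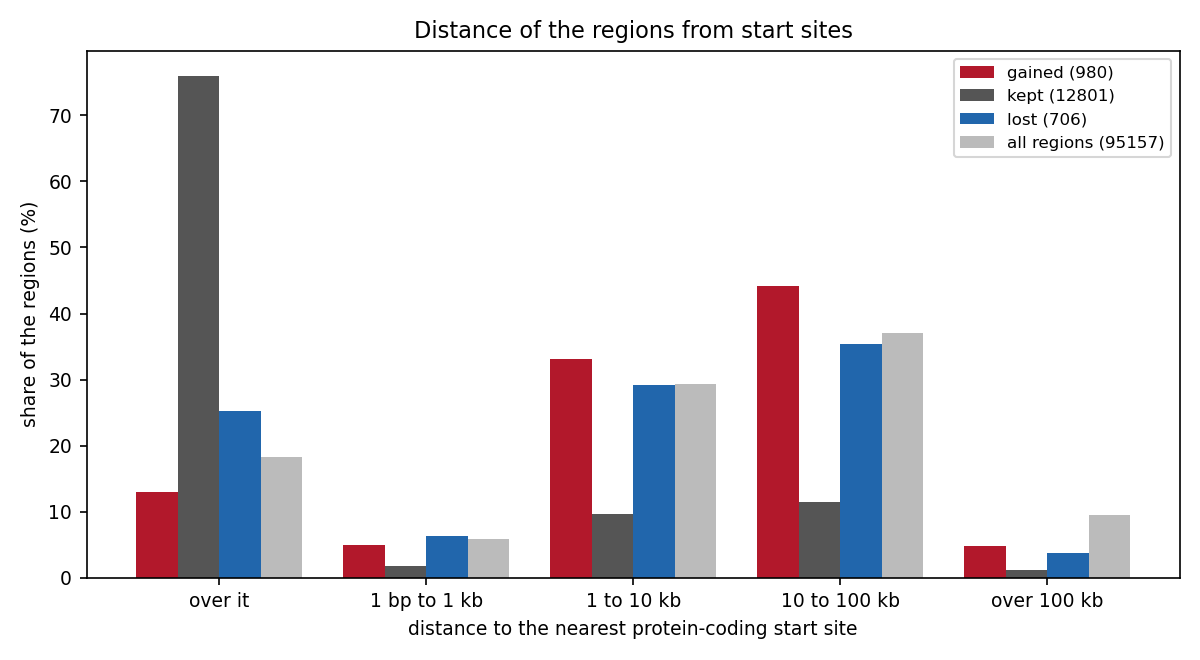
Bars give the share (%) of gained, kept, lost and all regions in each class of distance from the nearest protein-coding start site, with the number of regions in the legend. Gained regions are most often 10 to 100 kb away (44.2%), while 76.0% of kept regions lie over a start site.

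The gained regions were next read in control BMDM, which asks whether cells of mice without diabetes had the same regions under the same stimulus. The control stimulated libraries 1 to 6 held 923, 547, 616, 657, 260 and 777 of the 980, a mean of 630 ± 225 (SD, n = 6). The unstimulated libraries 1 to 6 held 528, 289, 485, 159, 587 and 541, a mean of 431.5 ± 169 (SD, n = 6). The groups overlapped, since stimulated library 5 was below all but one of the unstimulated libraries and unstimulated library 5 was above stimulated library 2. Without stimulated 5 and unstimulated 5 and 6 the stimulated libraries held 547 to 923 (mean 704, n = 5) and the unstimulated 159 to 528 (mean 365, n = 4). Since the 3 were left out for values such as these, the gap between the groups is in part set by the omission. Unstimulated library 1, with 528 gained and 181 lost regions, was kept.

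More stimulated than unstimulated control libraries held the region in 675 of the 980 (68.9%), where 27% of all regions did. In 132 gained regions more unstimulated libraries did, and in 173 the numbers were equal. Without the 3 libraries 807 (82.3%) had more stimulated holders, against 28.0% of all regions, and this rise too is in part set by the omission. The selection rule itself, at least 5 of 6 stimulated and at most 1 of 6 unstimulated, was met in control BMDM by 39 of the gained regions (3.98%), where 0.215% of all regions met it, and by 3 of the 12801 kept regions. Without the 3 libraries, at least 4 of 5 stimulated and at most 1 of 4 unstimulated libraries held 250 of the gained regions (25.5%) and 1.40% of all regions. With the lower number, control stimulated libraries held fewer of the gained regions than diabetic ones (a mean of 64.3% against 89.2%) and control unstimulated libraries more (44.0% against 11.3%). Whether this is a difference of the mice cannot be told apart from the selection, which fixed the diabetic numbers.

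**Figure D3:**
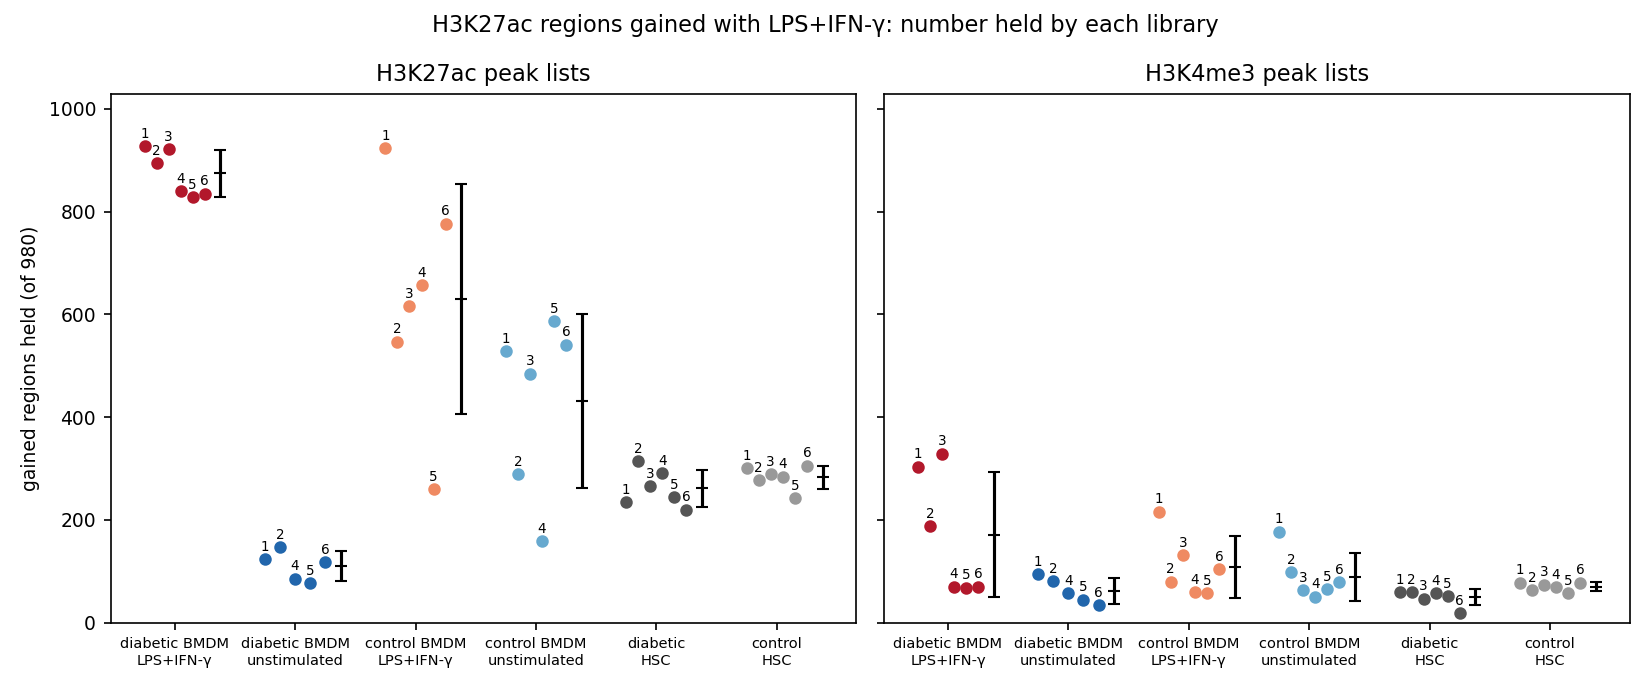
Each point is a library, grouped by cell state and disease, and the height gives how many of the 980 gained regions its 30000 strongest peaks held, for H3K27ac and H3K4me3. For H3K27ac the diabetic BMDM groups are apart by selection, the control BMDM groups overlap, and HSC libraries held 220 to 314. For H3K4me3 the stimulated and unstimulated BMDM groups overlap in both kinds of mouse, and HSC libraries held 19 to 78.

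**Figure D4:**
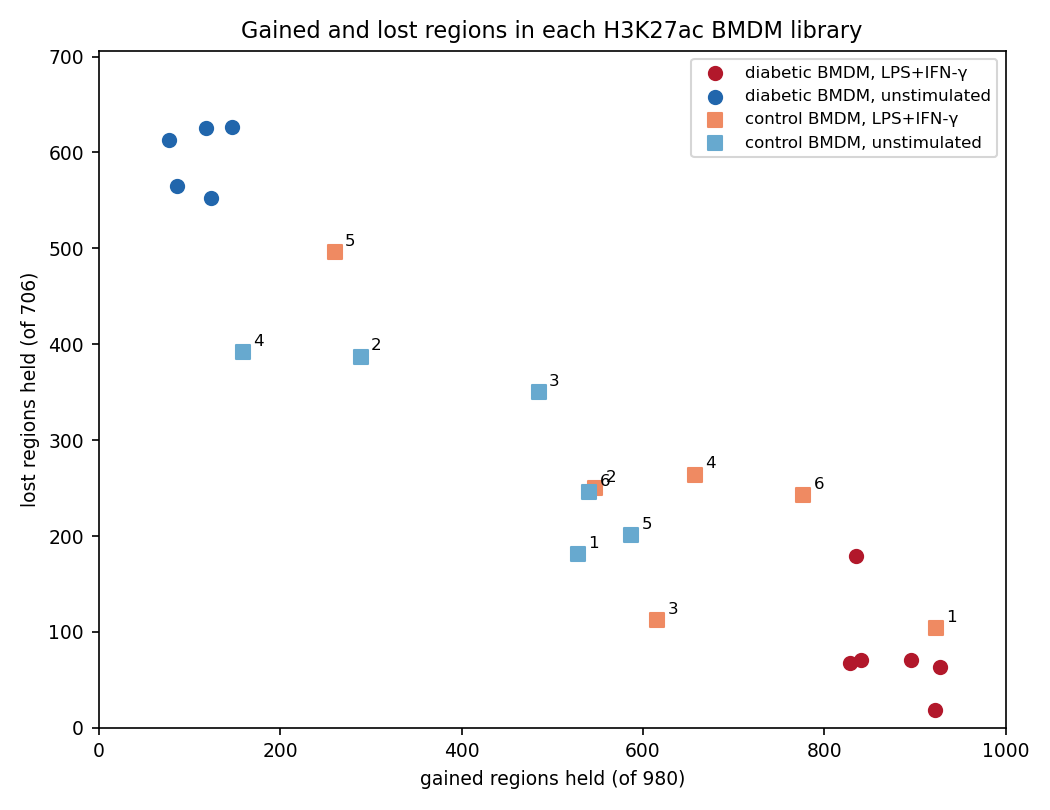
Each point is an H3K27ac BMDM library, with the gained regions it held (of 980) on the x axis and the lost regions (of 706) on the y axis, and control libraries carry their replicate number. Control stimulated library 5 (260 gained, 496 lost) lies toward the unstimulated diabetic libraries, and unstimulated library 5 (587 gained, 201 lost) lies among the other stimulated controls.

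Region by region, 453 of the gained regions had a number of control holders at which a two-sided Fisher's exact test could reach p under 0.05. Of these 8 were higher and 1 was lower with stimulation at an unadjusted p under 0.05, where 0.848% of the 7311 regions that could be tested were higher. None of the 980 passed after Benjamini-Hochberg adjustment over all regions tested, with an adjusted p of 1 for each, and an exact permutation test of the ranks gave 59 of 979 gained regions higher at an unadjusted p under 0.05, where 0.865% of all regions tested were, and 0 adjusted. With 6 against 6 libraries the smallest p of Fisher's exact test is 0.00216, and 317 regions held by one group alone would have been needed for an adjusted call, where 5 were found among all regions. Leaving out stimulated library 5 raised the 8 to 44, and leaving out unstimulated library 6 or 5 raised it to 32 or 24. The 8 regions lay near Cd200, Gbp8, Acsl1, Tbc1d9, Ercc6l2 and Arhgap22, each held by 5 stimulated and 0 unstimulated control libraries, and near Csrp1 and Gpr153, held by 6 and 1, all with p = 0.0152 in Fisher's exact test. The region near Rasa3 was held by 1 stimulated and 6 unstimulated libraries.

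At Cd200, whose product restrains myeloid cells through the receptor CD200R, the region over the start site (chr16:45408326-45409264) ranked 7947, 25793, 15280, 14158, 35916 and 10889 in the control stimulated libraries. In the unstimulated libraries 1, 2, 3, 4 and 6 it ranked 87198, 44055, 33609, 70423 and 41758, and library 5 had no peak. Control library 5 of the stimulated group thus ranked between the unstimulated ones. At the start site of Gbp8 (chr5:105052710-105053733) the stimulated ranks were 12827, 41046, 10278, 21446, 26126 and 15357. The unstimulated ranks were 53445, 60532, 80965, 48345 and 63950 in libraries 1, 2, 3, 4 and 6, with no peak in library 5, so every stimulated library ranked above every unstimulated one.

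The Nos2 region 7385 bp upstream was held by 5 stimulated and 2 unstimulated control libraries, with p = 0.242 in Fisher's exact test. Its ranks were 11135, 19470, 4464, 21376, 107077 and 12562 in the stimulated libraries. Unstimulated libraries 1, 5 and 6 had peaks at 41672, 28675 and 14956, and libraries 2, 3 and 4 had none. The unstimulated holders at Nos2 were therefore libraries 5 and 6, and the stimulated library outside the 30000 was library 5, so that without these 3 libraries the holders were 5 of 5 and 0 of 4. The Cxcl10 promoter region did not separate in control BMDM, with ranks of 15050 to 37307 in the stimulated libraries and 14422 to 91708 in the unstimulated ones, and 4 and 2 holders, or 3 of 5 and 1 of 4 without the 3 libraries.

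More stimulated than unstimulated control libraries held 9 of the 12 gained regions at effector enzymes, 12 of 15 at feedback regulators, 8 of 10 at transcription factors, 6 of 9 at interferon-stimulated genes and all 4 at interferon-inducible GTPases. For receptors this was 5 of 11 and for alternative activation genes 0 of 1. Without the 3 libraries it was 9 of 12 at effector enzymes, 14 of 15 at feedback regulators, 10 of 10 at transcription factors, 6 of 9 at interferon-stimulated genes and 7 of 11 at receptors. These counts stand beside the 68.9% of all gained regions, or 82.3% without the 3 libraries.

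The gained regions were also read for short motifs. In the 300 bases around the summit, an AP-1 match was found in 8.06% of gained regions against 5.66% of all regions, RUNX in 21.3% against 18.6%, an IRF pair in 6.22% against 4.99% and a STAT match in 6.53% against 5.64%. C/EBP was found in 8.47% against 7.72%, PU.1 in 1.94% against 1.68% and the kB consensus in 9.80% against 10.7%. In 1000 bases the shares were 31.1% against 23.2% for AP-1, 31.9% against 25.1% for the IRF pair, 26.8% against 23.9% for STAT, 10.6% against 7.31% for PU.1, 32.6% against 29.1% for C/EBP, 61.5% against 51.5% for RUNX and 24.4% against 23.1% for kB, so that the kB share changed sides with the window. Among regions more than 1 kb from a start site, the 300-base shares were 8.46% against 6.22% for AP-1 and 21.6% against 20.1% for RUNX. For the IRF pair they were 5.35% against 5.33%, and for STAT 5.72% against 6.04%. In 1000 bases of these regions the IRF pair was in 31.1% against 26.1% and STAT in 25.4% against 25.1%. Base composition differed between the sets, with a median GC content of 55% in gained, 57% in all and 66% in kept regions, and its part in these shares was not tested. Of all 32851 RefSeq promoters, 102 promoters of 94 genes overlapped a gained region in their 250 bases before the start. Among these 9.80% held an IRF pair (7.13% of all promoters), 10.8% a STAT match (7.02%), 10.8% an AP-1 match (6.75%), 4.90% a PU.1 match (2.44%) and 12.7% a C/EBP match (9.56%). RUNX was found in 10.8% of them against 14.0% of all promoters and kB in 6.86% against 7.25%.

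**Figure D5:**
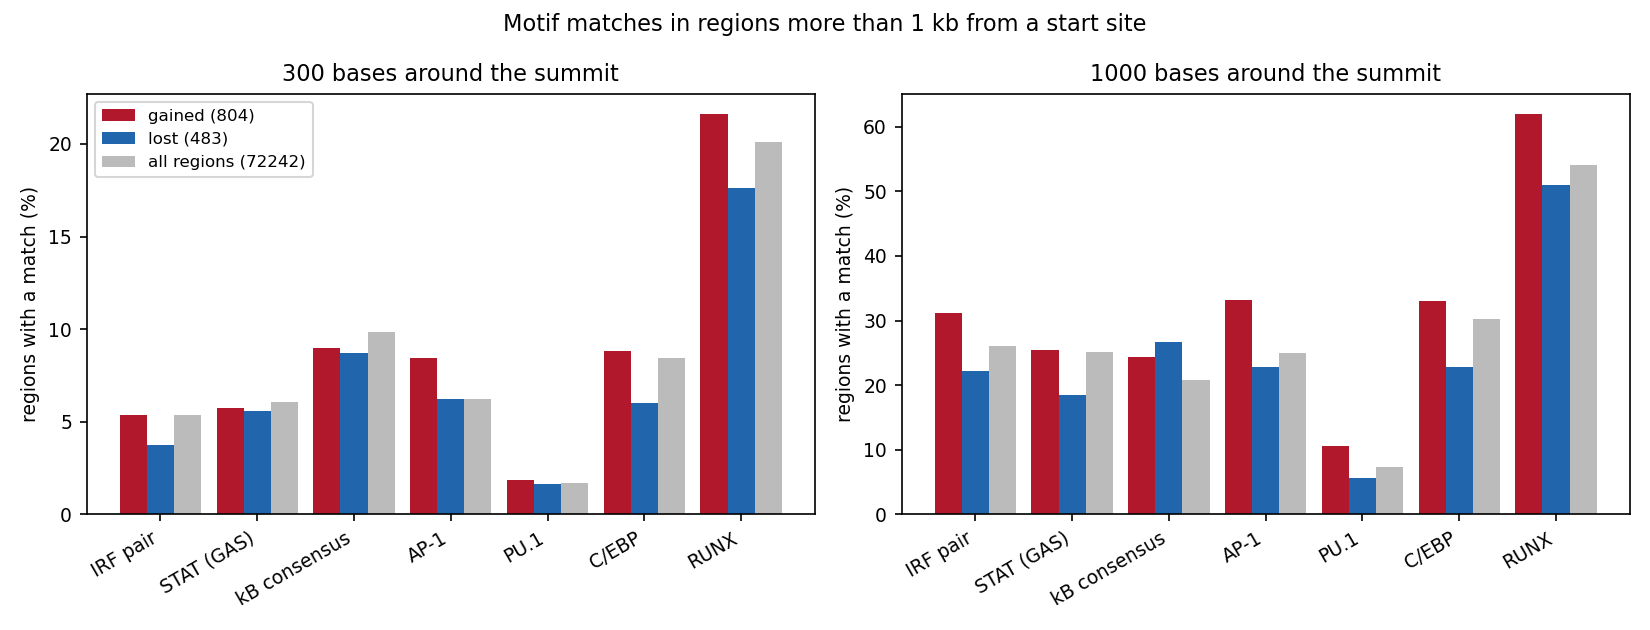
Bars give the share (%) of gained, lost and all regions more than 1 kb from a start site that hold a match to each motif, in windows of 300 and of 1000 bases around the summit. In 1000 bases the AP-1 share of gained regions is 33.2%, against 22.8% of lost and 24.9% of all regions. Kept regions, which are not drawn, had 30.8%.

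The progenitors were read to ask whether the regions carried acetylation before differentiation. The control HSC libraries 1 to 6 held 301, 278, 289, 284, 243 and 306 of the gained regions (mean 283.5 ± 22.4, SD, n = 6), and the diabetic ones 235, 314, 266, 291, 245 and 220 (261.8 ± 35.6, SD, n = 6). Of the 980, 370 regions (37.8%) were held by no HSC library and 68 (6.94%) by all 12, where 74.7% of kept, 5.81% of lost and 11.7% of all regions were held by all 12. No HSC library held 2.50% of kept, 20.7% of lost and 52.3% of all regions. Gained regions within 1 kb of a start site were held more often in HSC than those farther away, from 34.1% to 51.1% against 19.9% to 27.9% in the diabetic libraries. Those held by all 12 and named by their strength lay near Olfr31, Zc3h4, Klhdc4, Heg1 and Ppp2r5c. No HSC library held the Nos2 region 7385 bp upstream, and one each of the diabetic and control HSC libraries had a weak peak there, at ranks 121242 and 56449.

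Control HSC and control stimulated BMDM differed by an adjusted p under 0.05 (Fisher's exact test, Benjamini-Hochberg adjusted) in 170 of the 385 gained regions that could be tested, 167 of them (43.4%) higher in BMDM, where 21.8% of all regions tested were. Among kept regions tested 68.3% were higher in BMDM, and among lost ones 5.26%. All regions were merged from BMDM lists, and gained ones had to be held by stimulated diabetic BMDM. The share higher in BMDM is therefore in part set by the selection. Of the 167, 127 were held by 0 HSC and 5 BMDM libraries, 28 by 0 and 6, and 12 by 1 and 6, with adjusted p of 0.0432, 0.0209 and 0.0432 in Fisher's exact test. The 28 included regions near Pi4k2a, a lipid kinase, Tec, a tyrosine kinase, and Grk3, a kinase that desensitises receptors. The Nos2 region 7385 bp upstream was among the 127. The 3 regions higher in HSC lay over the start site of Pik3cg, the leukocyte lipid kinase (6 HSC and 0 BMDM libraries), and near Sash3 and Glrp1 (6 and 1 each), where 13.3% of all regions tested were higher in HSC. The 167 rest on the set of libraries and on how deep the lists are read. Leaving out any 1 of the 6 HSC libraries, or stimulated library 1, 2, 4 or 6, left 28 to 40 regions higher in BMDM at an adjusted p under 0.05, and without stimulated library 3 or 5 there were 214 or 298. With 10000 peaks per list 4 passed (and 10 higher in HSC). With all peaks, or with the peaks of lowest fold enrichment, 0 passed. In the exact permutation test of ranks 38 did (and 14 higher in HSC). At an unadjusted p under 0.05 these settings gave 4, 116, 1 and 242 higher in BMDM.

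Against control unstimulated BMDM, 3 of the 230 gained regions that could be tested were higher in BMDM at an adjusted p under 0.05 and 0 were higher in HSC, where 4.11% of all regions tested were higher in BMDM. They lay over the start sites of Grk3 and Ahnak, a large scaffold protein, and near Fignl2, each held by 0 HSC and 6 unstimulated BMDM libraries (adjusted p = 0.0294, Fisher's exact test, Benjamini-Hochberg). Leaving out unstimulated library 4 raised these 3 to 18, leaving out unstimulated 2 or 6 to 6, and leaving out HSC library 2 to 5. At an unadjusted p under 0.05, 29 gained regions were higher in unstimulated BMDM and 6 in HSC, where 14.5% and 12.4% of all regions tested were. No gained region was called different between diabetic and control HSC after adjustment. With 6 against 6 libraries the smallest p of Fisher's exact test is 0.00216, which limits such calls. Of 108 that could be tested 1 was higher in diabetic HSC at an unadjusted p under 0.05 in Fisher's exact test, where 0.228% of all regions tested were. The exact permutation test of ranks covered regions held by at least 1 HSC library, which leaves out 370 of the 980 gained regions. It gave 3 gained regions higher and 18 lower in diabetic HSC at that threshold, none adjusted. Of the 45422 regions tested in all, 0.612% were higher and 0.859% lower.

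H3K4me3 was read to see whether the gained regions carried the promoter mark. Among the 30000 strongest peaks of a list they mostly did not. At least 12 of the 23 H3K4me3 BMDM libraries held 43 of the 980 (4.39%), against 82.9% of kept and 21.1% of all regions. No such library held 338 (34.5%), against 40.2% of all regions. Peaks of any rank lay in 16.8% to 82.0% of gained regions in diabetic stimulated and 18.2% to 50.2% in diabetic unstimulated libraries. For all regions these ranges were 33.7% to 73.5% and 40.7% to 61.1%. In control stimulated and unstimulated libraries, 30.9% to 77.0% and 27.2% to 68.8% of gained regions had such a peak. The diabetic stimulated libraries 1 to 6 held 304, 188, 329, 70, 68 and 70 gained regions and the unstimulated libraries 1, 2, 4, 5 and 6 held 95, 81, 57, 45 and 34. Libraries 1, 2 and 3 stood apart from the rest of their group. With them the mean difference was 109.1 regions, and without them the remaining stimulated libraries held a mean of 69.3 against 62.4. With unstimulated libraries 1 and 2 left out as well, the means were 69.3 and 45.3. Both omissions were added after the data were seen. In control BMDM the stimulated libraries held 216, 80, 132, 60, 57 and 104 and the unstimulated 177, 98, 64, 51, 65 and 79, and these groups overlapped.

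Over both kinds of mouse, the share of H3K4me3 holders was larger among the 12 stimulated than among the 11 unstimulated libraries in 473 gained regions (48.3%), where this held for 23.8% of all regions, and smaller in 165. Of 217 gained regions that could be tested 17 had more stimulated holders at an unadjusted p under 0.05 in Fisher's exact test and 1 had fewer, where 1.23% of all regions tested had more. None passed after adjustment, and each had an adjusted p of 1. In diabetic BMDM alone 2 of 85 had more stimulated holders at that threshold and in control BMDM 1 of 47, where 0.66% and 0.167% of all regions tested had. The 17 fell to 7 without diabetic stimulated library 3 or control stimulated library 1.

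The strongest of the 17 lay at Ccl5. The region in its coding sequence (chr11:83528816-83529871, 642 bp downstream of the start site) was held for H3K4me3 by 7 of 12 stimulated and 0 of 11 unstimulated libraries (p = 0.00458, Fisher's exact test). Its H3K4me3 ranks in the diabetic stimulated libraries 1, 2, 3, 4 and 6 were 8781, 18658, 27133, 58613 and 45344, and library 5 had no peak. The one peak in the unstimulated diabetic libraries ranked 101562. In control stimulated libraries 1, 2, 3 and 6 the ranks were 15212, 19037, 4148 and 20841, and the unstimulated control libraries ranged from 48315 to 150704. At the start site of Ccl5 the counts were 6 and 0 (p = 0.0137, Fisher's exact test).

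Others with H3K4me3 in more stimulated libraries were the start site of Xaf1, an interferon-induced gene of cell death, and a region in Pim1, a serine kinase, at 8 and 1 holders each (p = 0.00942, Fisher's exact test). A region 7715 bp upstream of Cux2, a homeobox gene, had 9 and 2 holders (p = 0.0123, Fisher's exact test), and Oasl1, an interferon-induced gene of the 2′-5′ oligoadenylate synthetase family, 6 and 0 (p = 0.0137, Fisher's exact test). Cd200 had 9 and 3, and both Acod1 regions 5 and 0. At Cux2 and Pim1 the H3K27ac regions lay away from the start site. The region near Rmi2 ran the other way, with 6 stimulated and 11 unstimulated holders.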

How the data were processed

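ChIP-seq for H3K27ac and H3K4me3 was performed in BMDM and HSC of diabetic and control mice, with antibodies ab4729 and ab8580 and single reads of 50 bases per the labels. Of 106 samples, 70 had a peak list that was read, and 36 input samples were not used. The submitters' processing notes name Trim Galore 0.3.3, cutadapt 1.8, FastQC 0.11.3, Bowtie2 2.2.6, Picard 2.18.14 and 2.19.2, bedtools 2.19.1, MACS2 2.2.7.1 and the build GRCm38. Peaks were called by the authors in each library against the input of the same cells, without pooling. Each deposited peak carries a ratio, the fold enrichment over local background, with −log10 p and −log10 q as the authors' caller gave them. The lists stop near a q of 0.05 (lowest −log10 q 1.30). The sources used here give no filters or parameters. These values rate a peak within 1 library and were used only to rank. The read depth is unknown, so no interval is given.

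Rows of one interval were collapsed, and the 30000 peaks with the highest −log10 p of each list were used. One H3K4me3 list had fewer, with 13730. Peaks of 23 H3K27ac BMDM lists on 21 chromosomes were merged. For each region the numbers of holding libraries were compared between groups by two-sided Fisher's exact test, adjusted by the Benjamini-Hochberg method over all regions whose number of holders could reach 0.05. Start sites came from GENCODE M21 (93504 start sites of 21933 protein-coding genes). Motifs were searched in the reference genome and in RefSeq promoters of GRCm38.p6. Of 368 list entries, 362 matched the annotation. The computations used Python 3.11.15, pandas 2.3.3, scipy 1.17.1 and pysam 0.24.0, and were tested on simulated data.

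The gained regions, the gene lists, the motifs and the 3 control libraries left out were chosen with earlier results of these data known. The regions named in the text were those within 10 kb of Nos2, the 10 strongest held by 6 and 0 diabetic libraries, up to 4 per gene list, the 10 with the largest difference in control BMDM, the 5 largest for H3K4me3 and the 5 held by most HSC libraries, and the 2 just inside and those just outside the rule's limits. Other regions were named after their values were seen, namely the other Nos2 regions, those past a test's threshold and the genes given for the lists. Other numbers of peaks, the peaks of lowest fold enrichment, a q limit and another overlap were tried as alternatives. So were a rank test, omission of each library and a replicate block.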

Additional observations from a re-analysis of the deposited data

Results flagged for a closer look

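In 2 of the 12 groups 1 library lay far from the others in the number of gained regions held, by Dixon's criterion, which flags about 1 in 20 groups by chance. Among the diabetic HSC libraries for H3K4me3, library 6 was the lowest with 19 gained regions, where the other 5 held 47 to 60. Its list had 13730 peaks and was the only one shorter than 30000. Among the unstimulated control BMDM libraries for H3K4me3, library 1 was the highest with 177, where the other 5 held 51 to 98. Control stimulated library 1 for H3K4me3 also held the most of its group, 216. The cause was not tested.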

How the results depend on the processing

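Counts depended most on how deep the lists were read and on which peaks were kept. With 20000 peaks, 50000 peaks or the peaks of lowest fold enrichment (lowest fold below) the gained regions numbered 610, 1505 and 154. Without 1 library they numbered 1198 to 1528 (1528 without diabetic stimulated library 4, 1473 without library 6). A q limit of 1e-05 gave 1016. A stricter overlap gave 980 again, but each peak used lies wholly in its merged region, so that setting could hardly change the count. The following counts are of gained regions at an unadjusted p under 0.05, in the direction given in the report. In control BMDM the 8 became 0 with 10000 peaks, 0 with all peaks, 0 with lowest fold (2 opposite) and 59 in the permutation test, and 8 to 44 without 1 library. Stimulated libraries 2 to 5 and unstimulated 1, 5 and 6 each moved it by over 1.5 times (17, 14, 13, 44, 16, 24 and 32). For H3K4me3 in diabetic BMDM the 2 became 0, 11, 1 and 6 under these 4 settings (2 opposite in each of the last pair) and 2 to 11 without 1 library (stimulated 4, 5 and 6 gave 7, 11 and 11, unstimulated 2 and 6 gave 4 and 5). In control BMDM the 1 became 0 with 10000 peaks, all peaks and lowest fold, and 1 to 2 without 1 library (2 without stimulated 4 or 5). Over both the 17 became 0 with 10000 peaks and 9 with lowest fold (7 opposite), and 7 to 22 without 1 library (diabetic stimulated 1, 2 and 3 gave 8, 10 and 7, control stimulated 1 and 3 gave 7 and 10). For HSC against unstimulated BMDM the 29 became 0, 62, 4 and 44 under the 4 settings, with 12 opposite at 10000 peaks and 68 opposite in the permutation test, and 31 to 68 without 1 library (unstimulated 2, 4 and 5 gave 51, 68 and 44). Against stimulated BMDM the 167 became 4 with 10000 peaks and 1 with lowest fold, and 170 to 298 without 1 library (298 without stimulated 5). Adjusted, the 167 became 4, 0, 0 and 38 under the 4 settings and 28 to 298 without 1 library, and the 3 against unstimulated BMDM became 0 under each and 3 to 18. For diabetic against control HSC the 1 became 0 with 10000 peaks, all peaks, lowest fold and the q limit, 3 in the permutation test, and 1 to 2 without 1 library (2 without diabetic 1, 3 or 5 or control 1). The causes were not tested.

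With lowest fold the difference in the share of holders, stimulated minus unstimulated, changed sign at some regions. It turned to -0.333 for Cd200, -0.167 for Csrp1 and -0.167 for Zcchc4 in control H3K27ac. In H3K4me3 it turned to -0.189 for Ccl5, -0.106 for Pim1 and -0.197 for Cux2. The peaks of highest fold enrichment are left out by that setting, so these signs do not describe strong peaks. The kB share of gained minus all regions turned to 1.29 percentage points in 1000 bases. Counting any start site within 100 kb, gained minus all regions turned to -0.0470 percentage points for macrophage markers, 0.0781 for stem cell, 0.142 for neutrophil and 0.0580 for lymphoid markers. Of the other values of single regions, motifs and lists, 305 kept their direction and their side of the threshold, 47 lost and 4 gained significance, and 13 moved. The lowest fold setting gave 9 of the 47.

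With the replicate number as a block (exact sign test over pairs) the counts were 0 in control H3K27ac, 0 in diabetic and 0 in control H3K4me3, and 6 over both. Same-numbered libraries correlated from -0.189 to 0.291 in control and from 0.0446 to 0.358 in diabetic H3K27ac, and from -0.0143 to 0.304 and 0.0238 to 0.310 in H3K4me3. The best match was the own number for 3 of 6, 4 of 5, 2 of 6 and 2 of 5, so the numbers were not taken as pairs.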
